A study of Mus musculus with 4 samples.

Results

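The genes described are Cyp27a1, the mitochondrial sterol 27-hydroxylase of liver, and 5 genes of electron supply or cholesterol handling: Fdx1, Fdxr, Star, Tspo and Stard3. They were picked by symbol for what their products do, with earlier results of these data known. They are 6 of the 33639 genes in the deposited tables. All 6 averaged at least 1 CPM (scaled counts per 1000000) over the libraries, as did 11743 genes in all.

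The samples were livers of untreated male mice on standard chow, with 1 mouse and 1 RNA-seq library per genotype. The mice carried a global deletion of Cyp27a1 (Cyp27a1 KO), a global deletion that the labels call Cyp3a4 (Cyp3a KO), both deletions (DKO), or neither (WT). The mouse has a family of Cyp3a genes rather than a single Cyp3a4, so the family name is used. Deposited estimated counts summed to between 49745860 (WT) and 50378101 (Cyp3a KO) per library, and 1 count corresponded to between 0.0185 and 0.0214 CPM after scaling. With 1 mouse per genotype the spread between mice of a genotype could not be estimated and no test was made. Every interval below covers counting error only, and differences between animals cannot be told apart from differences between genotypes.

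CYP27A1 sits on the inner mitochondrial membrane and hydroxylates the sterol side chain, a step of both the classic and the alternative route of bile acid synthesis. Like all mitochondrial P450 enzymes it takes its electrons through a short chain: ferredoxin reductase (Fdxr) draws them from NADPH and the iron-sulfur protein ferredoxin (Fdx1) carries them to the P450. Cholesterol has to reach the inner membrane first. STAR moves it there in steroid-producing cells, TSPO is a cholesterol-binding protein of the outer mitochondrial membrane, and STARD3 is a sterol-binding protein of late endosomes with a START domain like that of STAR.

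In GRCm38, Cyp27a1 lies on the plus strand at chr1:74713574-74737892 and Fdx1 on the minus strand at chr9:51943306-51963556. Fdxr (chr11:115268024-115277050, minus strand) and Stard3 (chr11:98358368-98381112, plus strand) share a chromosome. Star lies at chr8:25806555-25815982 and Tspo at chr15:83563592-83574203, both on the plus strand. Each is annotated as protein-coding in GENCODE M21.

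Upstream sequence is shown for Cyp27a1, the deleted gene, and for Fdx1 and Fdxr, whose transcripts were above WT in the same libraries. These are the 250 bases before the RefSeq start in build GRCm38.p6, read 5′ to 3′ on the gene's own strand, at chr1:74713285-74713534 for Cyp27a1, chr9:51963603-51963852 for Fdx1 and chr11:115276970-115277219 for Fdxr. Capitals mark the GC box (GGGCGG), the CCAAT box (CCAAT) and the letters CAAGGTNA, an extended element of the kind bound by the NR5A receptors, each searched on both strands.
Cyp27a1: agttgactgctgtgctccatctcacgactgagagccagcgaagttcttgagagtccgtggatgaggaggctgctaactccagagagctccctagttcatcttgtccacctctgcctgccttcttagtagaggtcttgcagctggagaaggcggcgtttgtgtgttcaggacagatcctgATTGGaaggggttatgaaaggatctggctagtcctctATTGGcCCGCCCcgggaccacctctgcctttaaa
Fdx1: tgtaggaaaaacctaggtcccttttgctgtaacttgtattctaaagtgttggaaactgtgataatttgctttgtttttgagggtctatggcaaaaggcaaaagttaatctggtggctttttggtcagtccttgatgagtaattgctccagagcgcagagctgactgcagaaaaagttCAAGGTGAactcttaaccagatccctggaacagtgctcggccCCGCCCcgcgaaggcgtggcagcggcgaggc
Fdxr: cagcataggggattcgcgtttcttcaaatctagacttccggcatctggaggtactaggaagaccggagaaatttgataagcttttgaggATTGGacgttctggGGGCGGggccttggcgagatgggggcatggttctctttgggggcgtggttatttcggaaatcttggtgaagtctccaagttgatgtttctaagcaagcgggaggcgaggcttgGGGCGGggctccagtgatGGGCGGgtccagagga
The GC box occurred 1 time in the window of Cyp27a1, 1 time in that of Fdx1 and 3 times in that of Fdxr. It was present in 32.7% of the 32851 RefSeq promoters of that length. GENCODE M21 places the start of Fdxr at chr11:115277050, inside its window, so part of that window lies within the gene as annotated there. Of the Fdxr GC boxes, only that farthest from the RefSeq start lies before the GENCODE start. Cyp27a1 held 2 CCAAT boxes, Fdxr held 1 and Fdx1 held 0, with the motif in 33.8% of promoters. The CAAGGTNA match was found upstream of Fdx1 only among the 4 genes in the table (Cyp27a1, Fdx1, Fdxr and Stard3), and 3.36% of promoters held it. The nuclear receptor element AGGTCA, present in 14.0% of promoters, was in none of the 4 windows. A match is a stretch of letters in this window and no more.

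The labels were checked on the deleted genes first. Cyp27a1 had 2871 counts in the Cyp27a1 KO library, 36388 in the Cyp3a KO library, 3538 in the DKO library and 34788 in the WT library. Both libraries labelled as lacking Cyp27a1 were low and the other two were high. The 9 Cyp3a genes in the tables summed to 1257365 counts in Cyp27a1 KO, 135 in Cyp3a KO, 717 in DKO and 447804 in WT, so the libraries labelled as lacking Cyp3a were low for that family. Hepatocyte markers were abundant in every library, with 8 genes summing to 61151 CPM in Cyp27a1 KO, 64967 in Cyp3a KO, 87815 in DKO and 101739 in WT. Alb alone held 37953, 40344, 65721 and 72499 CPM of these, so the sums mostly follow that gene. The median log2 fold of the 8 against WT was -0.35 in Cyp27a1 KO, -0.35 in Cyp3a KO and -0.31 in DKO. Of the 8, 1, 2 and 1 lay above 0, and 1 was called lower, in DKO (4.02% of all tested genes).

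Cyp27a1 transcript fell steeply without being lost. Its level was 57.6 CPM in Cyp27a1 KO (55.6 to 59.8, exact 95% Poisson interval), 727 CPM in Cyp3a KO (719 to 734), 65.3 CPM in DKO (63.2 to 67.5) and 746 CPM in WT (738 to 754). Against WT it was 12.9-fold lower in Cyp27a1 KO (exact 95% interval of the count ratio 12.5 to 13.4) and 11.4-fold lower in DKO (11.0 to 11.8). DKO stood 11.1-fold below Cyp3a KO (10.7 to 11.5), a pair of libraries that does not include WT. The Cyp27a1 level in Cyp3a KO was 0.974 of that in WT (0.960 to 0.988) and lay above WT on library totals and on deposited values per length, and that in DKO was 1.13 times that in Cyp27a1 KO (1.08 to 1.19). In whole liver, fewer cells of a type and less RNA per cell cannot be told apart, here and below.

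The residual Cyp27a1 level, in CPM, was 7.73% of WT in Cyp27a1 KO (7.44 to 8.03) and 8.75% of WT in DKO (8.45 to 9.06). On deposited TPM (relative transcript abundance, in which counts are divided by transcript length) the residual was larger, at 12.0% of WT in Cyp27a1 KO and 15.4% in DKO. Of the 11743 genes tested, none had a lower log2 fold than Cyp27a1 in Cyp27a1 KO against WT, whereas 0.358% were as low or lower in DKO against WT and 0.255% in DKO against Cyp3a KO. A total of 62 genes were called lower both in Cyp27a1 KO against WT and in DKO against Cyp3a KO, and Cyp27a1 was the 1 gene at least 8-fold lower in both.

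**Figure D1:**
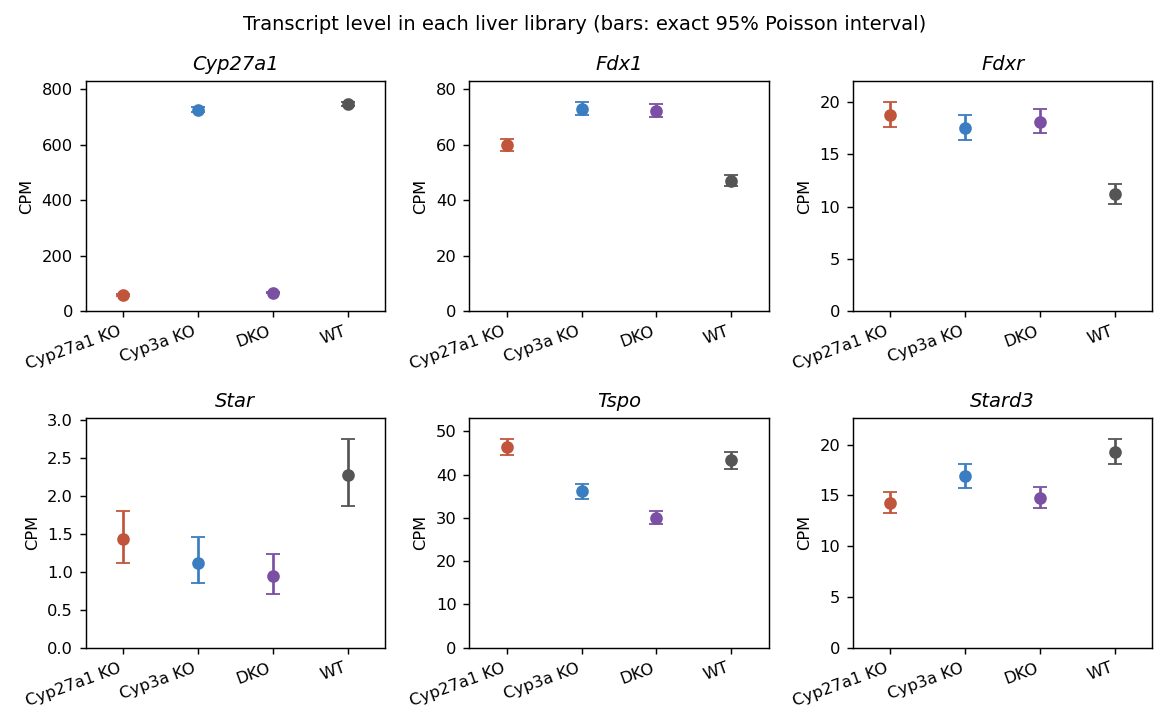
Level of each of the 6 genes in CPM (y axis, from 0, with its own scale per gene) in the 4 liver libraries (x axis). Points are single libraries and bars are exact 95% Poisson intervals; Cyp27a1 is at 57.6 and 65.3 CPM in Cyp27a1 KO and DKO, against 746 CPM in WT, while Fdx1 and Fdxr are lowest in WT and Star and Stard3 are highest there.

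Part of the gap between counts and TPM was shared by other genes, and the rest reflects a shorter average length behind the residual Cyp27a1 counts. In Cyp27a1 KO, TPM per CPM was 1.56 times that in WT for Cyp27a1, beside a median of 1.13 over tested genes. In DKO the value for Cyp27a1 was 1.76, beside a median of 1.28. Dividing deposited counts by deposited TPM gives the average effective length that the authors' software used for a gene, times a factor shared by the whole library. Effective length is transcript length less an allowance for fragment size. The factor and an allowance of 199 bases were fitted on 664 to 697 genes per library with a single GENCODE M21 transcript model. On those same genes the scaled quotient was within 0.1% of the model's length less 199 bases for 86.6% to 87.4% of genes. For Cyp27a1 the implied effective length was 1150 bases in Cyp27a1 KO, 1552 in Cyp3a KO, 1157 in DKO and 1585 in WT. The log2 ratio of this length to WT was -0.46 in Cyp27a1 KO, -0.03 in Cyp3a KO and -0.45 in DKO. Among 7929 genes with several models, 0.731% had a log2 length ratio as low in Cyp27a1 KO and 1.05% in DKO, against 29.3% in Cyp3a KO.

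GENCODE M21 gives Cyp27a1 a protein-coding model of 1892 bases with 9 exons (chr1:74713574-74737892) and a pair of short retained-intron models near its 3′ end. The short models are 645 bases (chr1:74735351-74736716) and 784 bases (chr1:74736809-74737823) long. If these are the models behind the deposited values, the short pair would hold between 16.9% and 25.0% of the Cyp27a1 counts in Cyp27a1 KO, 3.24% to 4.78% in Cyp3a KO, 16.6% to 24.5% in DKO and 2.43% to 3.59% in WT. In counts this is 485 to 716 in Cyp27a1 KO, 1179 to 1740 in Cyp3a KO, 587 to 866 in DKO and 846 to 1249 in WT. The counts left on the protein-coding model would then be 6.01% to 6.58% of WT in Cyp27a1 KO and 6.86% to 7.48% in DKO, and 96.2% to 96.6% in Cyp3a KO. Which exons the deletion removes is not given in the sources used here, and gene-level counts cannot show whether the residual transcript could be translated.

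**Figure D2:**
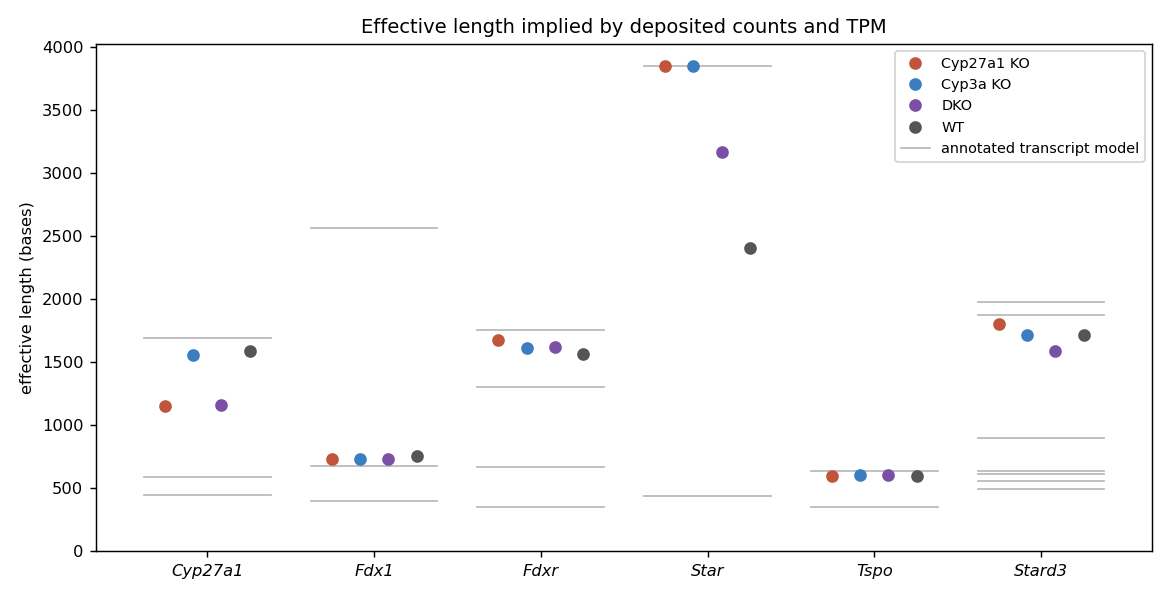
Effective length in bases (y axis) implied by deposited counts over deposited TPM for the 6 genes (x axis); each point is 1 library and grey lines are the effective lengths of the GENCODE M21 transcript models. Cyp27a1 lies at 1150 and 1157 bases in Cyp27a1 KO and DKO against 1585 in WT, and the points for Fdx1 and Tspo lie close together.

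A gene was called changed where its log2 fold of CPM + 0.5 was at least 1 in size, its mean was at least 1 CPM and the interval of the count ratio excluded 1. By this rule 1 of the 6 genes was called in Cyp27a1 KO against WT, where 3.81% of all tested genes were called and 1.36% were called lower, and that gene was Cyp27a1, lower. None was called in Cyp3a KO against WT, where the share over all genes was 4.43% in either direction and 1.86% lower. Cyp27a1 alone was called, lower, in DKO against WT, where 10.0% of all genes were called and 4.02% lower. It alone was called, lower, in DKO against Cyp3a KO (6.72% of all genes, 2.70% lower), and none of the 6 was called in DKO against Cyp27a1 KO (5.42% of all genes, 2.59% lower). So 0 of the 5 partner genes passed the rule in any of the 5 comparisons. The comparisons with WT share the WT library, and whatever is peculiar to that mouse enters all of them.

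Fdx1 and Fdxr, the electron carriers, were above WT in all 3 knockout libraries by less than the 2-fold of the rule, and lay above WT under every scaling tried. Fdx1 had 60.0 CPM in Cyp27a1 KO (57.9 to 62.2), 73.0 in Cyp3a KO (70.6 to 75.4), 72.2 in DKO (69.9 to 74.5) and 46.9 in WT (45.0 to 48.9). The intervals of Cyp3a KO and DKO overlapped and those of Cyp27a1 KO and WT stood apart from all others. Against WT, the Fdx1 level was 1.28 times as high in Cyp27a1 KO (1.21 to 1.35), 1.56 times in Cyp3a KO (1.47 to 1.64) and 1.54 times in DKO (1.46 to 1.62). Log2 folds as high were found in 15.1%, 6.40% and 12.7% of tested genes in Cyp27a1 KO, Cyp3a KO and DKO.

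Fdxr, which passes electrons from NADPH to Fdx1, had 936 counts in Cyp27a1 KO, 880 in Cyp3a KO, 983 in DKO and 522 in WT. Scaled, these were 18.8, 17.6 and 18.1 CPM in the Cyp27a1 KO, Cyp3a KO and DKO libraries and 11.2 CPM in the WT library. The 3 knockout libraries had overlapping intervals and WT lay below them. The Fdxr ratio to WT was 1.68 in Cyp27a1 KO (1.51 to 1.87), 1.57 in Cyp3a KO (1.41 to 1.75) and 1.62 in DKO (1.46 to 1.81), and 4.47%, 6.46% and 11.1% of tested genes had log2 folds as high.

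The difference from WT was not found again where Cyp27a1 was lost on the Cyp3a-deleted background. DKO against Cyp3a KO gave an Fdx1 ratio of 0.989 (0.945 to 1.03) and an Fdxr ratio of 1.03 (0.942 to 1.13), both with 1 inside the interval. For loss of Cyp3a on the Cyp27a1-deleted background, DKO against Cyp27a1 KO, the Fdx1 ratio was 1.20 (1.15 to 1.26) and the Fdxr ratio was 0.965 (0.882 to 1.06). Whether these ratios differ between backgrounds beyond the spread of animals was not tested, with 1 mouse per genotype.

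Compared per length, on the TPM scale, Fdx1 lay above Cyp27a1 where Cyp27a1 was deleted and below it elsewhere, while Fdxr lay below Cyp27a1 in every library. Cyp27a1 had 64.3 TPM in Cyp27a1 KO, 564 in Cyp3a KO, 82.3 in DKO and 534 in WT. Fdx1 had 106 TPM in Cyp27a1 KO, 120 in Cyp3a KO, 144 in DKO and 71.1 in WT. Fdxr was lower than Fdx1 in every library, at 14.4, 13.2, 16.3 and 8.15 TPM in Cyp27a1 KO, Cyp3a KO, DKO and WT. The ratio of Cyp27a1 to Fdx1 transcripts was 0.608 in Cyp27a1 KO, 4.69 in Cyp3a KO, 0.573 in DKO and 7.51 in WT, and that of Cyp27a1 to Fdxr was 4.47, 42.8, 5.04 and 65.5 in Cyp27a1 KO, Cyp3a KO, DKO and WT. Fdx1 exceeded Fdxr 7.36-fold in Cyp27a1 KO, 9.13-fold in Cyp3a KO, 8.80-fold in DKO and 8.72-fold in WT.

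**Figure D3:**
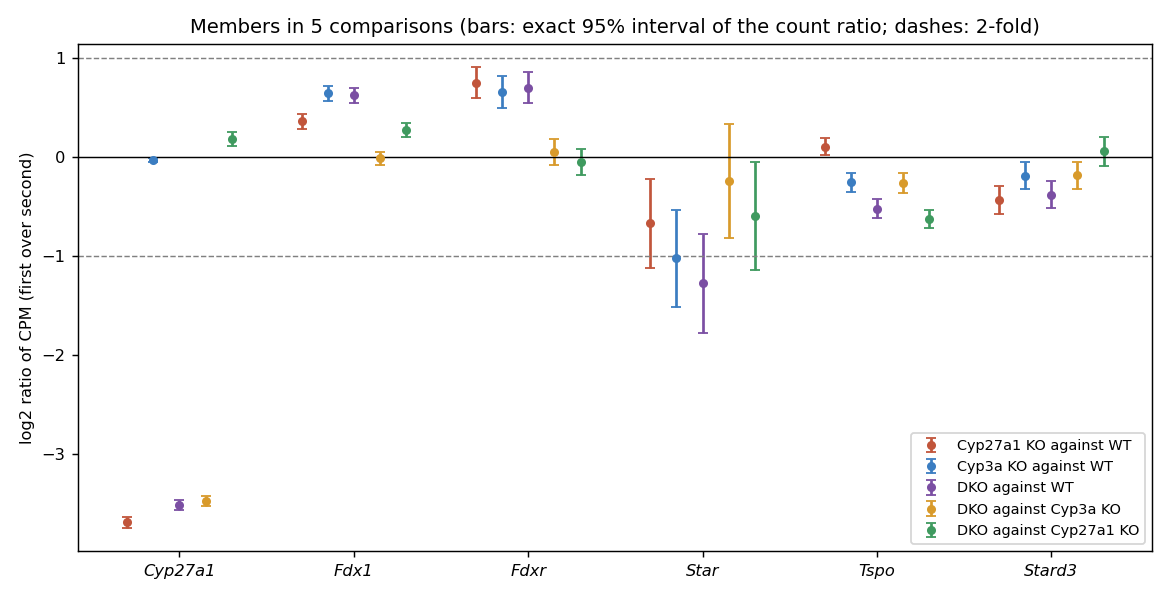
Log2 ratio of CPM (y axis, without the added 0.5) for the 6 genes (x axis) in 5 comparisons, each written as the library on top of the ratio against the other; bars show the exact 95% interval for counting error and dashes mark 2-fold. Cyp27a1 lies beyond the lower dashes in 3 comparisons, Fdx1 and Fdxr lie above 0 in the 3 comparisons with WT, and Star crosses the lower dashes in Cyp3a KO and DKO against WT on this scale.

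Star transcript was scarce in every liver and scarcest in the knockouts. It had 71 counts in Cyp27a1 KO, 56 in Cyp3a KO, 51 in DKO and 106 in WT, which is 1.43 CPM in Cyp27a1 KO (1.11 to 1.80), 1.12 in Cyp3a KO (0.845 to 1.45), 0.941 in DKO (0.701 to 1.24) and 2.27 in WT (1.86 to 2.75). The interval of WT lay above those of the knockout libraries, which overlapped each other. Star was 1.59-fold below WT in Cyp27a1 KO (1.17 to 2.19), 2.03-fold below in Cyp3a KO (1.46 to 2.86) and 2.41-fold below in DKO (1.71 to 3.44). With 0.5 added to each CPM, which pulls the folds of low genes towards 0, the log2 folds were -0.53, -0.78 and -0.94 in Cyp27a1 KO, Cyp3a KO and DKO, so none passed the rule. Of the tested genes, 6.40%, 3.21% and 4.51% had log2 folds as low in these comparisons.

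STAR is best known from the adrenal gland and the gonads, so markers of adrenal steroid cells are given beside it. Of 7 such genes 1 reached a mean of 1 CPM, Akr1b7, an aldo-keto reductase that liver also expresses, with 212 counts in Cyp27a1 KO, 260 in Cyp3a KO, 3096 in DKO and 54 in WT. The 7 genes summed to 6.41 CPM in Cyp27a1 KO, 6.01 in Cyp3a KO, 58.1 in DKO and 3.26 in WT. Of these sums Akr1b7 alone held 4.26, 5.19, 57.2 and 1.16 CPM, so they mostly follow that gene in the knockouts. Cyp11a1, the enzyme that cuts the cholesterol side chain to start steroid synthesis, had 13 counts in Cyp27a1 KO, 1 in Cyp3a KO, 6 in DKO and 11 in WT. Cyp11b1, the enzyme of the last step to corticosterone, had 13, 0, 8 and 15 counts in Cyp27a1 KO, Cyp3a KO, DKO and WT, and the melanocortin receptor Mc2r had 1 count in DKO and 0 elsewhere. Cyp21a1, the adrenal steroid 21-hydroxylase, had 67 counts in Cyp27a1 KO, 39 in Cyp3a KO, 21 in DKO and 50 in WT. Hsd3b1, a hydroxysteroid dehydrogenase, had 14, 1, 13 and 22 counts in Cyp27a1 KO, Cyp3a KO, DKO and WT. Cyp11b2 had 0 in every library. The part of such transcripts in the Star values was not tested.

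The deposited TPM of Star gave a larger difference from WT in Cyp27a1 KO, at 0.475 TPM against 1.07 TPM, than its counts did. Star has models of 4046 and 633 bases, and its implied effective length was 3847 bases in Cyp27a1 KO and in Cyp3a KO, 3164 in DKO and 2407 in WT. On these models the shorter would hold 8.06 of the WT counts, 1.40 of the DKO counts and about 0 of the others. Counts on the longer model alone were 67.9% of WT in Cyp27a1 KO, 53.2% in Cyp3a KO and 43.6% in DKO.

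Tspo was lower in the Cyp3a-deleted libraries. It had 2309 counts in Cyp27a1 KO, 1807 in Cyp3a KO, 1625 in DKO and 2017 in WT, which is 46.4 CPM in Cyp27a1 KO, 36.1 in Cyp3a KO, 30.0 in DKO and 43.3 in WT. DKO was the lowest and Cyp27a1 KO the highest. Tspo was 1.44-fold lower in DKO than in WT (1.35 to 1.54) and 1.55-fold lower in DKO than in Cyp27a1 KO (1.45 to 1.65). Its ratio to WT was 0.834 in Cyp3a KO (0.782 to 0.889) and 1.07 in Cyp27a1 KO (1.01 to 1.14). On deposited TPM the DKO and Cyp3a KO libraries were level, at 72.3 and 72.2 TPM, with 99.3 in Cyp27a1 KO and 82.1 in WT, and on recentred TPM the log2 fold of Tspo in DKO against Cyp3a KO was -0.24.

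Tspo is also expressed by macrophages, so the Kupffer cell and macrophage markers are given beside it. The 8 markers summed to 232 CPM in Cyp27a1 KO, 148 in Cyp3a KO, 369 in DKO and 216 in WT. All 8 were measured, with 0 called in Cyp27a1 KO, 1 called lower in Cyp3a KO and 2 called higher in DKO, each against WT. In DKO, 6 of the 8 were called higher against Cyp3a KO, with a median log2 fold of 1.54, and 3 against Cyp27a1 KO, with a median of 0.82. The shares called higher over all tested genes were 4.02% and 2.84% in these comparisons. In CPM, Tspo was lowest and the marker sum highest in the DKO library, while on deposited TPM Tspo was level in DKO and Cyp3a KO. The part of the markers' cells in the Tspo values was not tested.

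Stard3 was the steadiest of the 6 genes, with a span of 0.42 in log2(CPM + 0.5) over the 4 libraries. It had 14.3 CPM in Cyp27a1 KO (13.2 to 15.3), 16.9 in Cyp3a KO (15.8 to 18.1), 14.8 in DKO (13.8 to 15.8) and 19.3 in WT (18.0 to 20.6). WT was the highest, and the interval of Cyp3a KO overlapped that of WT by a small margin. Stard3 was 1.35-fold lower than WT in Cyp27a1 KO (1.22 to 1.49), 1.14-fold lower in Cyp3a KO (1.04 to 1.26) and 1.30-fold lower in DKO (1.18 to 1.44). On deposited TPM the DKO difference changed sign, with 13.6 TPM in DKO and 12.7 in WT. Recentred on the median of all genes, which lay at 0.33 in that comparison, the Stard3 log2 fold on TPM was -0.24.

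The median log2 fold of the 5 partner genes was 0.10 in Cyp27a1 KO, -0.19 in Cyp3a KO and -0.37 in DKO against WT, beside medians of 0.00, 0.01 and -0.01 over all tested genes. In DKO against Cyp3a KO it was -0.17, and in DKO against Cyp27a1 KO it was -0.05. By TPM, Cyp27a1 ranked first among the 6 genes in Cyp3a KO and WT, behind Fdx1 and Tspo in Cyp27a1 KO, and behind Fdx1 in DKO. Star ranked last in every library, and Tspo exceeded it 209-fold in Cyp27a1 KO, 206-fold in Cyp3a KO, 167-fold in DKO and 76.6-fold in WT.

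The wider pathway was described with 9 lists holding 76 genes, of which 66 reached a mean of 1 CPM. Among these 66, 0 were called in Cyp27a1 KO against WT, 1 in Cyp3a KO against WT and 3 in DKO against WT, all of them higher. These are 0.00%, 1.52% and 4.55% of the 66, where of all 11743 tested genes 287 were called higher in Cyp27a1 KO (2.44%), 301 in Cyp3a KO (2.56%) and 705 in DKO. In DKO against Cyp3a KO and in DKO against Cyp27a1 KO, 2 of the 66 were called higher each time (3.03%, against 4.02% and 2.84% of all genes). None was called lower in any comparison.

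The other mitochondrial P450s, which draw on the same ferredoxin, were near or at 0. Besides Cyp11a1 and Cyp11b1, Cyp27b1, which activates vitamin D, had 3 counts in Cyp27a1 KO and 0 in the other libraries. Cyp24a1, which degrades active vitamin D, and Cyp11b2, the aldosterone synthase, had 0 counts everywhere. A count of 0 allows up to 0.0602 CPM in Cyp27a1 KO, 0.0599 in Cyp3a KO, 0.0554 in DKO and 0.0643 in WT (3 counts). Cyp27a1 was therefore the most abundant mitochondrial P450 transcript of those listed in all 4 libraries, the deleted ones included.

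In human cells FDXR also serves the assembly of iron-sulfur clusters, through a second ferredoxin listed here as Fdx1l, so that machinery was followed. Fdx1l had 10.9 CPM in Cyp27a1 KO, 9.79 in Cyp3a KO, 9.32 in DKO and 9.80 in WT, and in none of the comparisons with WT did its interval exclude a ratio of 1. Per length, Fdx1 exceeded Fdx1l 4.62-fold in Cyp27a1 KO, 6.14-fold in Cyp3a KO, 6.37-fold in DKO and 3.94-fold in WT. Of the 13 iron-sulfur genes 1 was called, in DKO against WT: Hscb, a co-chaperone that hands new clusters on. Hscb had 1.65 CPM in Cyp27a1 KO, 1.98 in Cyp3a KO, 3.23 in DKO and 1.33 in WT, a DKO to WT ratio of 2.43 (1.81 to 3.30). Its log2 fold of 1.03 was just past the rule, and the call was lost with a pseudocount of 2 (0.65), on recentred TPM (0.93) and at a minimum mean of 5 CPM. The median log2 fold of the list against WT was 0.09 in Cyp27a1 KO, 0.06 in Cyp3a KO and -0.01 in DKO. None of the 8 lipoylation genes was called against WT, and their median log2 folds were 0.25, 0.16 and 0.03 in Cyp27a1 KO, Cyp3a KO and DKO; human cells use FDX1 in this process.

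For NADPH, the electron source of Fdxr, 5 of 7 listed mitochondrial suppliers were measured, with median log2 folds against WT of 0.08 in Cyp27a1 KO, 0.06 in Cyp3a KO and 0.37 in DKO. The 1 call was Me3, the mitochondrial NADP-dependent malic enzyme, at 26.4 CPM in Cyp27a1 KO, 15.7 in Cyp3a KO, 37.1 in DKO and 25.1 in WT. It was called in DKO against Cyp3a KO (ratio 2.37, 2.18 to 2.58) and not against WT. None of the 8 heme synthesis genes was called against WT, and the median log2 folds were 0.30, 0.30 and 0.35 in Cyp27a1 KO, Cyp3a KO and DKO. Red blood cell markers, whose precursors also make heme, summed to 448 CPM in Cyp27a1 KO, 286 in Cyp3a KO, 280 in DKO and 608 in WT. Within these sums Alas2 held 146, 103, 29.2 and 87.7 CPM, so it was above WT in Cyp27a1 KO and Cyp3a KO. Of 5 measured markers, 1, 4 and 4 were called lower in Cyp27a1 KO, Cyp3a KO and DKO against WT, beside 1.36%, 1.86% and 4.02% of all genes. The part of these cells in the heme values was not tested.

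The microsomal electron donors, which serve the P450s of the endoplasmic reticulum and not Cyp27a1, were listed for contrast. The list also holds Cyb5b, the cytochrome b5 of the outer mitochondrial membrane, and Pgrmc1, a heme-binding membrane protein that associates with P450s. All 5 were above WT in all 3 knockout libraries, with median log2 folds of 0.63 in Cyp27a1 KO, 0.57 in Cyp3a KO and 0.64 in DKO, and 0 were called. Fdxr, with log2 folds of 0.72, 0.63 and 0.67 in Cyp27a1 KO, Cyp3a KO and DKO, lay close to these medians. Cyb5a, the microsomal cytochrome b5 and an example chosen after its values were seen, had 951 CPM in Cyp27a1 KO, 1004 in Cyp3a KO, 1132 in DKO and 615 in WT. Por, the main P450 reductase and chosen in the same way, had 1041 CPM in Cyp27a1 KO, 1117 in Cyp3a KO, 1439 in DKO and 1011 in WT.

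In the list for the START family, to which Star and Stard3 belong, 12 of 13 other genes were measured and 2 were called against WT. The list also holds Stard3nl, which is related to Stard3 but lacks the START domain. Stard4, a soluble sterol carrier, had 57.7 CPM in Cyp27a1 KO, 106 in Cyp3a KO, 148 in DKO and 47.8 in WT. It was called higher in Cyp3a KO against WT (2.22-fold, 2.11 to 2.34), in DKO against WT (3.10-fold, 2.96 to 3.25) and in DKO against Cyp27a1 KO (2.57-fold, 2.46 to 2.68). The call in Cyp3a KO against WT was lost on recentred TPM, at a log2 fold of 0.99. Acot11, an acyl-CoA thioesterase with a START domain, had 9.64 CPM in Cyp27a1 KO, 4.35 in Cyp3a KO, 25.2 in DKO and 5.45 in WT. It was called higher in DKO against WT (4.63-fold, 4.05 to 5.31), against Cyp3a KO (5.79-fold, 5.02 to 6.71) and against Cyp27a1 KO (2.62-fold, 2.36 to 2.91). The median log2 folds of the list against WT, Stard3nl included, were 0.18 in Cyp27a1 KO, 0.12 in Cyp3a KO and 0.41 in DKO.

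None of the 8 measured membrane partners of Tspo and Star was called against WT, and their median log2 folds were 0.15 in Cyp27a1 KO, 0.05 in Cyp3a KO and 0.13 in DKO. The late endosome genes that work beside Stard3 were also uncalled, 0 of 7, with median log2 folds of 0.12, 0.09 and 0.53 in Cyp27a1 KO, Cyp3a KO and DKO. With TMM scaling all 7 of these late endosome genes lay above WT in DKO, where Stard3 itself was 1.30-fold below. Of the 66 measured pathway genes, 72.7% had a log2 fold above 0 in Cyp27a1 KO, 68.2% in Cyp3a KO and 69.7% in DKO against WT, beside 50.1%, 50.9% and 48.4% of all tested genes.

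**Figure D4:**
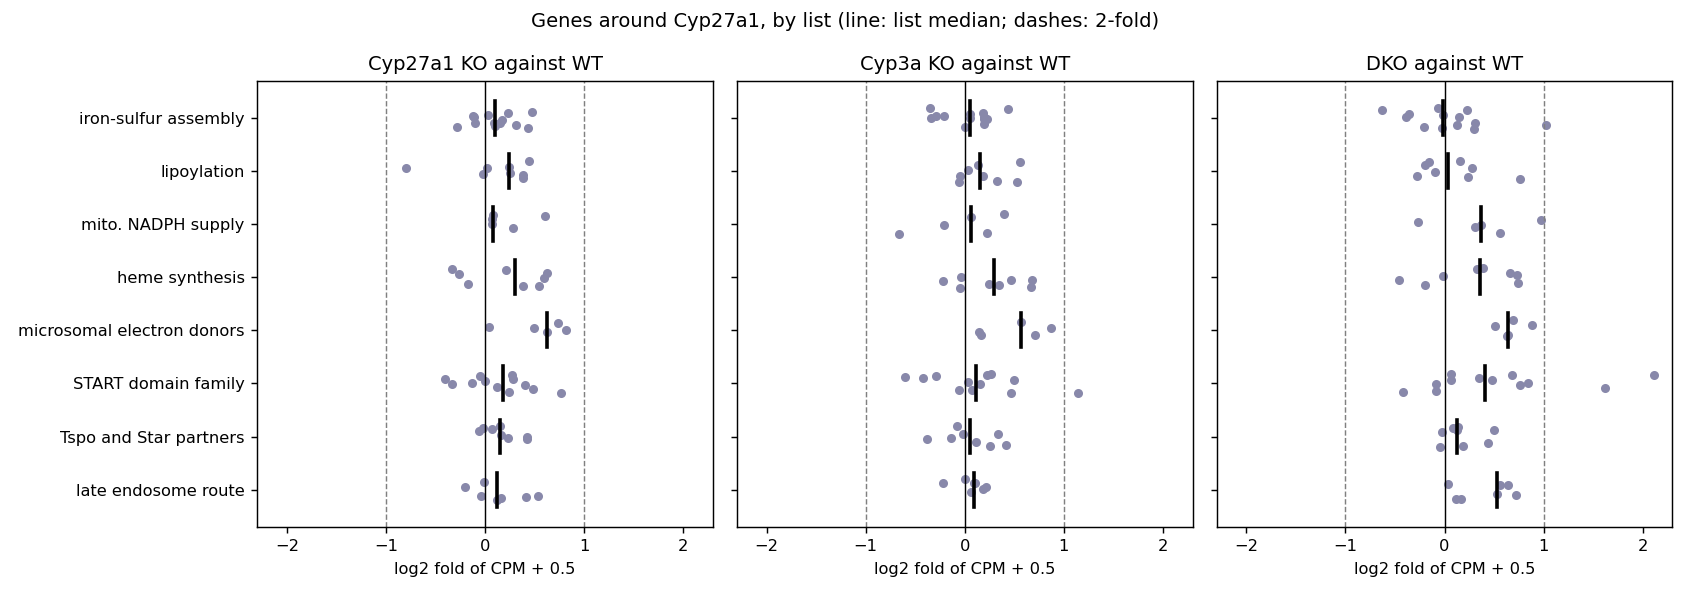
Log2 fold of CPM + 0.5 against WT (x axis) of each measured gene in 8 pathway lists (y axis), in a panel for each knockout library; points are genes, black bars are list medians and dashes mark 2-fold. The microsomal electron donors lie above 0 in every panel, and Hscb, Stard4 and Acot11 are the points beyond 2-fold in DKO; the mitochondrial P450s are not drawn because none was measured.

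The genes beside Cyp27a1 on chromosome 1 were examined because a deletion can touch its surroundings. Of the 8 nearest protein-coding genes on each side, 6 were measured, all of them on the side before Cyp27a1, and 0 were called in any comparison. The nearest of these, Ttll4, lies 11.3 kb away and had 27.9 CPM in Cyp27a1 KO, 26.1 in Cyp3a KO, 21.5 in DKO and 26.8 in WT. Log2 folds of the 6 ran between -0.25 and 0.72 in Cyp27a1 KO, -0.54 and 0.74 in Cyp3a KO, and -0.77 and 0.63 in DKO against WT. The highest value in each range was that of Bcs1l, a mitochondrial chaperone of the respiratory chain, named after its values were seen. On the other side the nearest gene, Prkag3, 1.03 kb away, was under 1 CPM in every library and so was not tested by the rule. It had 0.141 CPM in Cyp27a1 KO, 0.320 in Cyp3a KO, 0.111 in DKO and 0.515 in WT. Its ratio was 0.273 in Cyp27a1 KO against WT (0.0994 to 0.653), 0.215 in DKO against WT (0.0719 to 0.540) and 0.347 in DKO against Cyp3a KO (0.111 to 0.933), so it was lowest in the libraries without Cyp27a1 and these counting intervals excluded 1. In Cyp3a KO against WT the ratio of Prkag3 was 0.621 (0.308 to 1.22). In that comparison, with Cyp27a1 intact, intervals excluded 1 for other unmeasured neighbours, named after their values were seen. These were Stk36 at a ratio of 0.511 (0.310 to 0.826), Plcd4 at 0.200 (0.0368 to 0.715) and Ihh at 3.24 (2.09 to 5.17).

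Cyp27a1 was the only one of the 6 genes whose log2(CPM + 0.5) spanned at least 1 over the 4 libraries, with a span of 3.68. Star, with a span of 0.94 on that scale, passed 2-fold only without the added 0.5. The genes with the most similar log2 folds against WT, by root mean square distance over 3 comparisons and among 8619 candidates, were Cyp4a31 (1.01), Avpr1a (1.11), Serpine2 (1.24), Mup-ps19 (1.24) and Cyp4a14 (1.28). None was near: Cyp4a31, a fatty acid hydroxylase, had 7.15 CPM in Cyp27a1 KO, 19.2 in Cyp3a KO, 6.48 in DKO and 56.3 in WT, and so was also below WT where Cyp27a1 was intact. Mup-ps19 is one of a set of near-identical urinary protein genes and pseudogenes whose reads can be split among copies, so its value is uncertain.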

How the data were processed

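Liver RNA kept in RNAlater and extracted with a Qiagen RNeasy kit was turned into TruSeq v2 libraries, per the labels' protocols. Per the submitters' processing notes, build mm10 was used with kallisto 0.43.1, HISAT2 2.0.5 and Trimmomatic 0.33, whose roles are not stated there. The authors deposited estimated counts and TPM per gene for 4 libraries, 1 per genotype. The annotation release they used is not given in the sources used here.

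Estimated counts were rounded and 1 row naming no gene, at 0 in every library, was left out. CPM used edgeR 4.0.16 TMM factors (R 4.3.3). Folds are log2(CPM + 0.5). A gene was tested at a mean of at least 1 CPM and called at 2-fold with an exact 95% interval (Clopper-Pearson, conditional binomial) of the count ratio excluding 1. No p-value was computed. The calling code was tested on simulated data with counting noise only, which says nothing of the spread between mice. Intervals and the floor of 3 counts cover counting error only, since reads are not independent molecules. Coordinates are GRCm38 (GENCODE M21, RefSeq). Protein sequences were not used here.

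Alternatives were library totals, DESeq2 1.42.0 size factors, deposited TPM with and without recentring, other filters and pseudocounts, and a 1.5-fold rule. Calls on TPM, recentred or not, used a mean of at least 1 TPM and did not require the interval of the count ratio to exclude 1. Named genes were the 6 genes, pathway genes called in any comparison, the mitochondrial P450s and the 5 genes nearest in pattern to Cyp27a1; exceptions are stated. The genes and lists were chosen with earlier results of these data known.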

Additional observations from a re-analysis of the deposited data

Results flagged for a closer look

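A pair of genes moved in opposite directions when the same gene was lost on different backgrounds, each by a small amount and with both counting intervals excluding a ratio of 1. For Tspo, loss of Cyp27a1 gave a log2 fold of 0.10 in Cyp27a1 KO against WT and of -0.26 in DKO against Cyp3a KO. On deposited TPM the second value was 0.00, where the median of all genes was 0.24; on TPM recentred on that median the values were 0.096 and -0.24, again of opposite sign. For Cyp27a1, loss of Cyp3a gave a log2 fold of -0.038 in Cyp3a KO against WT and of 0.18 in DKO against Cyp27a1 KO. On library totals the first of these was 0.05 and on deposited TPM 0.08, above 0 like the second. That second fold compares residual transcript between libraries that both carry the Cyp27a1 deletion, and the first compares libraries with Cyp27a1 intact. The differences between backgrounds were not tested, because each rests on single mice.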

How the results depend on the processing

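No paired analysis was possible because each genotype has 1 library, and for the same reason no library was left out. Of 180 member folds under the 6 alternatives that can move a fold, 140 moved by less than their counting interval and 40 by more; the filters and the 1.5-fold rule cannot move one. None of the called folds changed sign; 7 folds, none of them called, changed sign under some scaling: Cyp27a1 in Cyp3a KO against WT, Fdx1, Star, Stard3 and Tspo in DKO against Cyp3a KO, Fdxr in DKO against Cyp27a1 KO, and Stard3 in DKO against WT.

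The residual Cyp27a1 level in Cyp27a1 KO was 8.21% of WT on library totals, 12.0% on TPM and 10.6% on recentred TPM; in DKO it was 10.1%, 15.4% and 12.2%. At 1.5-fold, the members called, of 6, numbered 2 in Cyp27a1 KO against WT, 3 in Cyp3a KO against WT, 4 in DKO against WT and 1 in DKO against Cyp27a1 KO. Over all 11743 tested genes, 1392, 1532, 2831 and 1703 were called in these comparisons. In DKO against WT the members called numbered 2 on TPM, which adds Fdx1, and 2 with a pseudocount of 0.1, which adds Star. Under these settings 1548 of 11091 and 1369 of 11743 tested genes were called. At 1.5-fold, neighbours called, of 6 measured, numbered 1 in Cyp27a1 KO, 1 in Cyp3a KO and 2 in DKO against WT, and 1 in DKO against Cyp27a1 KO. The counts over all genes are those given for the members at 1.5-fold.

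Pathway genes called at 1.5-fold, of 66 measured, numbered 8 in Cyp27a1 KO, 7 in Cyp3a KO and 18 in DKO against WT. They numbered 5 in DKO against Cyp3a KO and 5 in DKO against Cyp27a1 KO. Over all 11743 tested genes, 1392, 1532, 2831, 1999 and 1703 were called in these comparisons. On TPM the pathway genes called numbered 1 in Cyp27a1 KO and 13 in DKO against WT, and 4 in DKO against Cyp3a KO. Over all 11091 genes tested on TPM, 575, 1548 and 947 were called. Because TPM calls carry no interval rule, their numbers and shares are not like for like with those on CPM. Recentred TPM gave 0 pathway genes in Cyp3a KO against WT (519 of 11091 tested genes). Library totals gave 6 in DKO against WT (1331 of 11746 tested genes).

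TPM moved the median log2 fold of all genes to 0.18 in Cyp27a1 KO, 0.09 in Cyp3a KO and 0.33 in DKO against WT, to 0.24 in DKO against Cyp3a KO and to 0.16 in DKO against Cyp27a1 KO. With it, 82.7% of calls in DKO against WT were higher, beside 59.9% with TMM factors, and 77.6% beside 64.2% in Cyp27a1 KO against WT, 77.7% beside 59.8% in DKO against Cyp3a KO, and 65.6% beside 52.3% in DKO against Cyp27a1 KO. Library totals gave 73.3% in DKO against WT. At 1.5-fold the calls over all genes were 809 higher and 583 lower in Cyp27a1 KO, 867 and 665 in Cyp3a KO, and 1599 and 1232 in DKO, each against WT, beside 287 and 160, 301 and 219, and 705 and 472 at 2-fold. In DKO they were 1126 and 873 against Cyp3a KO (472 and 317 at 2-fold) and 927 and 776 against Cyp27a1 KO (333 and 304). A pseudocount of 2 left 197 and 96 in Cyp27a1 KO and 203 and 132 in Cyp3a KO against WT, and a minimum of 5 CPM left 269 and 235 in DKO against Cyp3a KO and 181 and 226 against Cyp27a1 KO.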
